A study of Mus musculus with 4 samples.

Results

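The EDL-only open regions are 2892 of the 30136 peaks in the extensor digitorum longus (EDL) list of an assay for transposase-accessible chromatin (ATAC-seq), or 9.6%, with a 95% Wilson interval of 9.27% to 9.93%. They were selected on the peak calls themselves: an EDL peak is a member when no peak of the quadriceps (Quad), soleus (Sol) or diaphragm (Dia) list overlaps it or lies within 500 bp of it, edge to edge, on the same chromosome. The 4 lists hold 120839 peaks in all. The same rule leaves 10683 Quad-only peaks (26.5% of that list), 4007 Sol-only peaks (13.9%) and 2112 Dia-only peaks (9.79%), and because the rule sets these shares, they are given as descriptions. All muscles came from sedentary wild-type mice of the strain C57BL/6, males of the J substrain bought at 7 to 8 weeks of age, and the groups differ in the muscle alone. Each muscle is represented by 1 library that the labels call pooled, made from about 30 mg of frozen powdered tissue, so no comparison between muscles has replicates and no p-value is given. Every interval below covers counting error over peaks, which are not replicates of a muscle.

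EDL is a fast-twitch hindlimb muscle in the front of the lower leg, made mainly of glycolytic fibres, and Quad is a large, mostly fast muscle of the thigh. Sol is a postural calf muscle rich in slow oxidative fibres, and Dia is the breathing muscle. ATAC-seq reads DNA that a transposase can reach, which in muscle tissue marks active promoters and the enhancers that set fibre type, metabolism and position along the body, in myofibre nuclei together with those of vessels, nerve and connective tissue. The label of the EDL library was compared with marker genes. A promoter peak of Myh4, the myosin of the fastest glycolytic fibres, was called in EDL and Quad and in neither Sol nor Dia. Peaks nearest to Myh7, the slow myosin, were called in Sol (2 peaks) and not in EDL, Quad or Dia, while the promoter of Ngdn, a broadly expressed gene, was called in all 4 lists and no list held a peak at the cardiac myosin Myh6. The myosins did not all follow fibre type. Sol held 1 Myh4 peak outside the promoter. Myh2, the myosin of fast oxidative fibres, had 2 peaks each in EDL and Quad and 1 each in Sol and Dia. Myh1, a further fast myosin, had 1 peak in Quad and none in EDL, Sol or Dia. None of the EDL peaks at these genes was an EDL-only peak.

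A peak missing from a list is a peak that was not called there, and the lists give no signal at uncalled positions. Called peaks had a fixed width in each list, 208 bp for EDL and from 188 bp (Quad) to 232 bp (Dia) elsewhere, and the lists range from 21582 peaks (Dia) to 40337 (Quad). The lowest Peak Score, a tag count scaled to a common library size, was 3.27 in EDL and lay between 3.06 and 3.63 in the other lists. From the steps between scores, 1 tag of the EDL library could be recovered as a fixed unit, and the EDL score of the weakest peak stands for 34 tags, against 25 to 36 tags in the other lists. The long Quad list was the one that removed most EDL peaks: 4227 EDL peaks had a Quad peak within 500 bp and none in the other 2 lists, against 980 for Sol and 340 for Dia.

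Sequences of 5 members are shown because they carry the letters described in the following paragraphs: the highest-scored members outside exons at Mef2d, Pygm, Tnnc2 and Pvalb, which are genes of muscle fibres, and the highest-scored member outside exons that holds the CTCF motif, nearest to Cxcl12. They were read from the RefSeq GRCm38 (mm10) reference, plus strand, 5′ to 3′. Capitals mark matches on either strand to the CAGCTG E-box, which myogenic factors of the MyoD family bind, to MEF2, to the TEAD word CATTCC, to AP-1 (TGACTCA or TGAGTCA) or to CTCF, whose longer motifs are given here by name.
Mef2d at -3917 bp, chr3:88138351-88138559: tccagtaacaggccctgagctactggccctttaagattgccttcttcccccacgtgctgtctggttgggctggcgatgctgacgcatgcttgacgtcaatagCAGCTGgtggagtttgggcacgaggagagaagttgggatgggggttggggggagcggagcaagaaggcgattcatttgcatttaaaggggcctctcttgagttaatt
Pygm at 669 bp, chr19:6384973-6385181: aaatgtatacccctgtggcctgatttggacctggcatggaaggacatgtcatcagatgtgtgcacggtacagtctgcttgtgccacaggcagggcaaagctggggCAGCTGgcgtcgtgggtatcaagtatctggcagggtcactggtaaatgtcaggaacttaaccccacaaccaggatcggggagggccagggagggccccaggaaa
Tnnc2 at -2363 bp, chr2:164781993-164782201: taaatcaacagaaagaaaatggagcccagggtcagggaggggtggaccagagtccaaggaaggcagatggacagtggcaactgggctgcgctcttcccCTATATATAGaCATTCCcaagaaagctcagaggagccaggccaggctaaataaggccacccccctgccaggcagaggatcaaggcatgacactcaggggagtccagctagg
Pvalb at -5215 bp, chr15:78211511-78211719: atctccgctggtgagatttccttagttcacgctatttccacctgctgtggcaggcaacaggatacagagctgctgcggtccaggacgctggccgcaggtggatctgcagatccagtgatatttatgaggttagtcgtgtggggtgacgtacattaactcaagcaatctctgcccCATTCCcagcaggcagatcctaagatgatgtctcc
Cxcl12 at -1537 bp, chr6:117166894-117167102: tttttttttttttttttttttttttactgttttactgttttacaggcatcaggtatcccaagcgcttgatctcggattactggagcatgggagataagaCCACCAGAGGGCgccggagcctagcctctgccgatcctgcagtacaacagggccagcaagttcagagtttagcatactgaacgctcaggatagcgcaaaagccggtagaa
In these 209-base windows the E-box of the Mef2d region spans bases 103 to 108 and that of the Pygm region bases 106 to 111, so both sit at the middle of the called peak. The Tnnc2 region holds a MEF2 match at bases 99 to 108 with a TEAD word right beside it at bases 110 to 115. The Pvalb region has its TEAD word off centre, at bases 175 to 180, and the CTCF match of the Cxcl12 region lies at bases 100 to 111. None of the 5 overlaps an exon in RefSeq. In the GENCODE annotation the Mef2d, Tnnc2 and Pvalb regions overlap no gene, and the Pygm region lies in intron 1 of Pygm.

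Most members were weak peaks of the EDL list. Their scores had a median of 4.52 with quartiles at 4.04 and 5.39 and a highest value of 19.4, and the median member stood at percentile 15.4 of the EDL list. In the lowest score decile 34.9% of EDL peaks were EDL-only (1156 of 3311), and the share was lower in every higher decile, to 0.269% (8 of 2977) in the highest. Members in the upper 50% of the list by score numbered 245, members at or above percentile 75 numbered 38, and 217 members had a score of at least 7.26, which is 2 times the highest of the other lists' lowest scores. The median member thus scored little above the level at which peaks begin to be called in the other lists, and the part of that level in the EDL-only set was not tested.

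**Figure D1:**
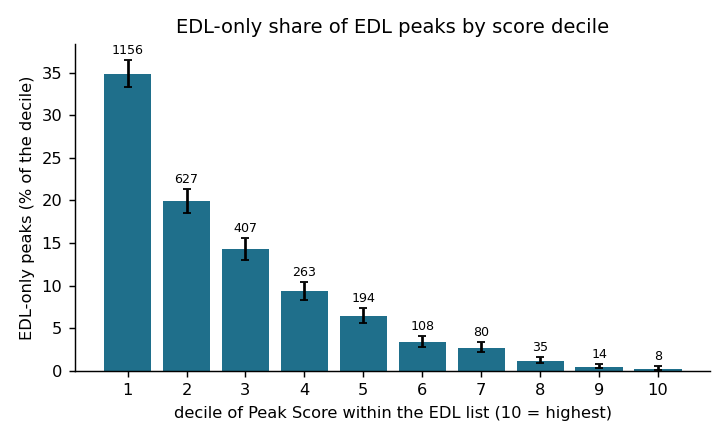
Share of EDL peaks that are EDL-only in each decile of Peak Score, with 95% Wilson intervals as error bars and the number of EDL-only peaks above each bar. The share is 34.9% in the lowest decile and 0.269% in the highest.

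The median member was 8346 bp from the nearest peak of any other list, with 214 members between 501 and 1000 bp away and 708 beyond 20 kb. That nearest peak belonged to Quad for 1402 members, to Sol for 793 and to Dia for 697. Around the limit itself, the members just inside were near Aplnr (501 bp, score 3.85), A330009N23Rik (503 bp, 16.2) and Sh3glb1 (503 bp, 8.76). The EDL peaks just outside were near Pyroxd2 (497 bp, 4.33), Ckm (499 bp, 12.7) and Nfatc3 (499 bp, 7.6).

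Of the 10 EDL-only regions with the highest scores, 2 were at Mef2d, which encodes a MADS-box factor that activates muscle genes. The first, at -3917 bp and with the E-box shown above, had a score of 19.1 (199 tags, interval of the score 16.6 to 22.0). The second covered the Mef2d promoter at -33 bp with a score of 18.1 (188 tags). In the other lists the nearest peak to this promoter was 8103 bp away for Quad, 8700 bp for Sol and 8675 bp for Dia. All 4 lists shared the peak near -8.9 kb of Mef2d, with a score of 15.8 for EDL, 15.9 for Quad, 11.9 for Sol and 7.45 for Dia, so in EDL both EDL-only peaks scored above a peak of the same gene that every muscle has.

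Pygm encodes muscle glycogen phosphorylase, which releases glucose from glycogen. Its EDL-only peak in intron 1, at 669 bp, had a score of 17.1 against 15.8 for the EDL peak at the Pygm promoter. The promoter was called in every list, with scores of 19.3 in Quad, 14.0 in Sol and 11.4 in Dia, and the nearest edges of those peaks were 589, 581 and 604 bp from the intronic one. The region is thus close to the limit of the rule, and at a limit of 2000 bp neither it nor the Tnnc2 region described next would be a member.

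Tnnc2 encodes troponin C of fast fibres. Its EDL-only peak at -2363 bp had a score of 14.5, next to EDL peaks at the promoter (15.0) and in intron 1 (13.0). Quad had the same promoter and intron peaks (13.7 and 11.9), Sol the promoter peak (10.3), and the Dia list held no peak assigned to Tnnc2. Pvalb encodes parvalbumin, the calcium buffer of fast fibres. Its only EDL peak was the EDL-only peak at -5215 bp, with a score of 10.8, and the Quad list held 4 other Pvalb peaks, with scores of 3.84 to 13.8. The closest peaks of the other lists to the Pvalb region were 3663 bp (Quad), 3690 bp (Sol) and 3483 bp (Dia) away. Quad, Sol and Dia shared a peak in intron 1, at 977, 938 and 967 bp, with scores of 13.8, 5.35 and 6.24. They also shared an upstream peak, at -9076, -9112 and -8918 bp, with scores of 3.84, 8.98 and 5.84. Neither was called in EDL, so at this gene the EDL position differed from those of Quad, Sol and Dia alike.

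**Figure D2:**
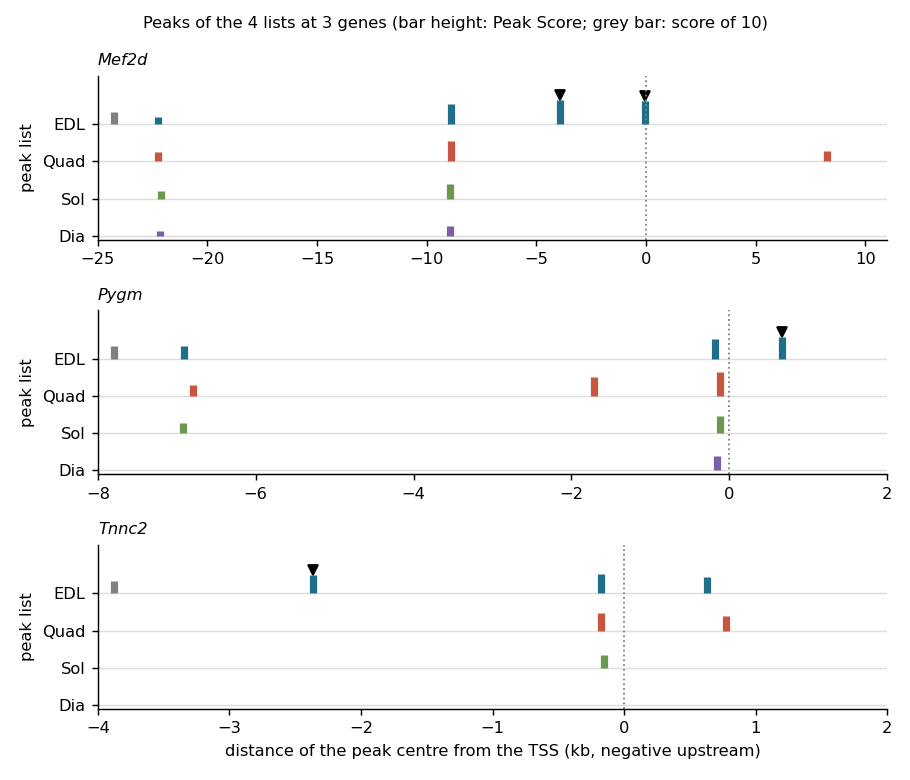
Peaks assigned to Mef2d, Pygm and Tnnc2 in the 4 lists, by distance of the peak centre from the TSS in kb, with bar height in proportion to Peak Score and a grey bar for a score of 10. Black triangles mark EDL-only peaks, which stand at -3917 and -33 bp of Mef2d, 669 bp of Pygm and -2363 bp of Tnnc2, where the other lists have no peak within 500 bp.

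The other members among the 10 highest were at genes with varied roles. The highest of all was in intron 1 of Brd2, a bromodomain protein that reads acetylated histones (score 19.4, 202 tags, chr17:34121193-34121401), 1514 bp from the closest peak of another list, the Brd2 start region that all 4 lists share. Kdm6b, an H3K27 demethylase, had 3 EDL-only peaks, the strongest in intron 1 (14.8). Dlgap4, a scaffold protein of synapses, had one in intron 1 (17.0) and Trib1, a pseudokinase, one in intron 2 (15.7). Acvrl1, an endothelial receptor of the BMP family, had one in a 3' UTR (15.7), and the remaining one was at -16874 bp of the non-coding gene A330009N23Rik (16.2), 503 bp from a Quad peak. At 8 of these 10 positions the nearest peak of another list was at least 1398 bp away, the exceptions being Pygm and A330009N23Rik.

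EDL-only regions were mostly intronic and intergenic. Introns held 1402 members (48.5%, against 32.8% of the other 27244 EDL peaks), intergenic sequence 1226 (42.4% against 28.5%) and promoters 113 (3.91% against 33.6%). The promoter share differed by -29.7 percentage points (Newcombe interval -30.5 to -28.7). Since members were weak and weak EDL peaks are less often at promoters, the other EDL peaks were also weighted to the members' score deciles. The promoter difference was then -9.94 points (-10.9 to -9.02), the intergenic difference 1.65 points (-0.41 to 3.72) and the difference for introns, exons and gene ends together 8.29 points (6.21 to 10.4). So at equal score the members were still short of promoters and had more peaks inside genes, and the interval of the intergenic difference included 0. Outside promoters and at equal score, the intergenic share of members was lower, by -2.91 points (-5.05 to -0.776).

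The median member lay 25217 bp from the nearest transcription start site, against 8766 bp for the other EDL peaks and 23689 bp for those outside promoters. Beyond 50 kb of a start site were 29.9% of members and 19.0% of the other EDL peaks. At equal score this difference was 1.12 points (-0.80 to 3.03), and outside promoters at equal score it was -2.06 points (-4.07 to -0.058). Of the 245 in the upper 50% by score, 125 (51.0%) lay within 5 kb of a start site, against 60.6% of the other EDL peaks in that score range, a difference of -9.59 points (-15.9 to -3.34). A first intron held 81 of them (33.1%), against 10.8%, a difference of 22.2 points (16.6 to 28.4). Intergenic peaks were also more frequent among them, by 9.39 points (3.97 to 15.4), while the interval for the share beyond 50 kb included 0. Promoters made up 12.7% of these members and 49.1% of the other EDL peaks in that score range. The class and distance shares of that range were not computed with promoters left out, so their differences are not separate from the promoter difference. In counts, promoters made up 31 of the 245 members and 7245 of the 14762 other peaks. Intergenic peaks numbered 73 and 3013, and peaks within 5 kb of a start site 125 and 8947. The intergenic and 5 kb differences thus do not show where strong members lie outside promoters. At or above percentile 75, 18 of 38 members were in a first intron and none was beyond 50 kb. Strong first-intron members included those at Glul, glutamine synthetase (13.5), Smarcd3, a chromatin remodelling subunit that works with MyoD (12.5), Flnc, the muscle filamin (12.1), and Fhl3, a LIM-domain protein (11.4). Fhl3 had 1 peak in each of EDL, Quad and Sol and the 3 were at different positions, at 974, -772 and 2970 bp.

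**Figure D3:**
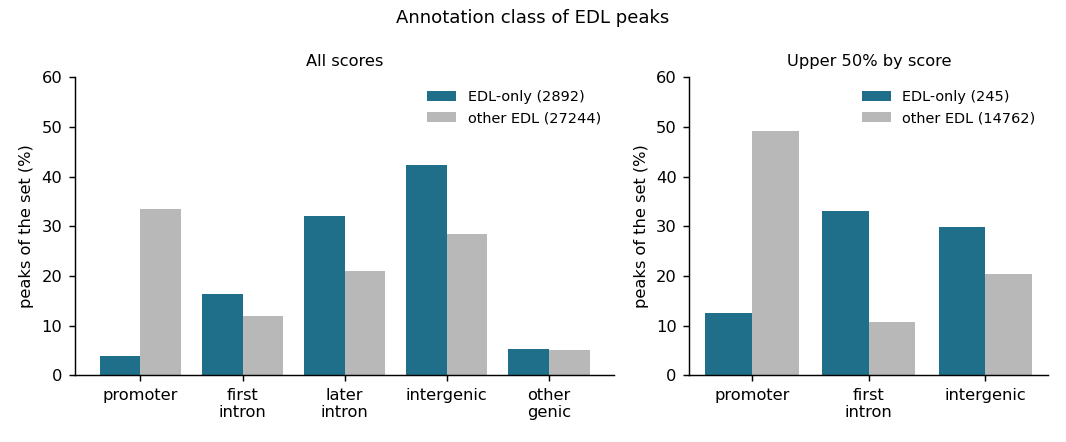
Percentage of EDL-only and of other EDL peaks in each annotation class, for all scores (left) and for the upper 50% of the EDL list by score (right, 3 classes shown). EDL-only peaks are at promoters in 3.91% against 33.6%, and among strong peaks they are in first introns in 33.1% against 10.8%. All shares count promoter peaks, which are 12.7% of the strong EDL-only and 49.1% of the other strong peaks.

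The DNA of the members was less GC-rich than that of other EDL peaks. Mean GC was 49.7% ± 5.78 (SD over 2889 members on assembled chromosomes) against 56.4% ± 8.92, and 45.3% in windows of the same width 2 kb downstream of the members. The difference was -2.91 points (-3.16 to -2.65) at equal score and -3.28 points (-3.51 to -3.05) outside promoters. Peaks with at least 50% of their bases soft-masked as repeats were 2.67% of members and 1.13% of other EDL peaks, against 18.2% of the downstream windows, so members were mostly unique sequence.

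Of 22 motifs searched on both strands, 13 were found more often in members than in the downstream windows of the same length, by intervals that leave out 0. CTCF, the insulator-binding factor, had a match in 4.26% of members and 0.173% of downstream windows (123 against 5). The CAGCTG E-box was in 22.5% against 10.6%, AP-1 in 8.31% against 3.05%, MEF2 in 4.47% against 1.63% and TEAD in 15.8% against 11.1%. In 93 of the 123 members with CTCF the match lay within the central 100 bp. Such shares were also found in the rest of the EDL list. Against other EDL peaks of equal score, the members differed in 4 of the 22 motifs: they held TEAD more often by 2.91 points (1.42 to 4.40) and FOX, the word TGTTTAC, by 0.93 points (0.13 to 1.73). They held ETS (CCGGAAG) less often by -2.03 points (-2.61 to -1.45) and the GC-box of SP and KLF factors (GGGCGG) by -8.50 points (-9.63 to -7.37), which go with the lower GC and the few promoters given above. For CTCF, MEF2, AP-1 and the CAGCTG E-box the intervals of the difference at equal score included 0, the widest being that of the E-box (-1.84 to 1.65). Outside promoters and at equal score, TEAD was still more frequent in members (2.40 points, 0.854 to 3.95), and 4 motifs were less frequent: MEF2 (-1.19 points, -2.11 to -0.272), SP/KLF (-3.65 points), NFAT, the word TGGAAA (-1.88 points, -3.64 to -0.111), and the MAF word TGCTGAC (-1.24 points, -2.25 to -0.224). The intervals for FOX and ETS then included 0. MEF2 depended on the peaks taken: with each list cut to its 20000 highest scores, and no weighting, it was more frequent in members by 2.31 points (1.20 to 3.62).

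**Figure D4:**
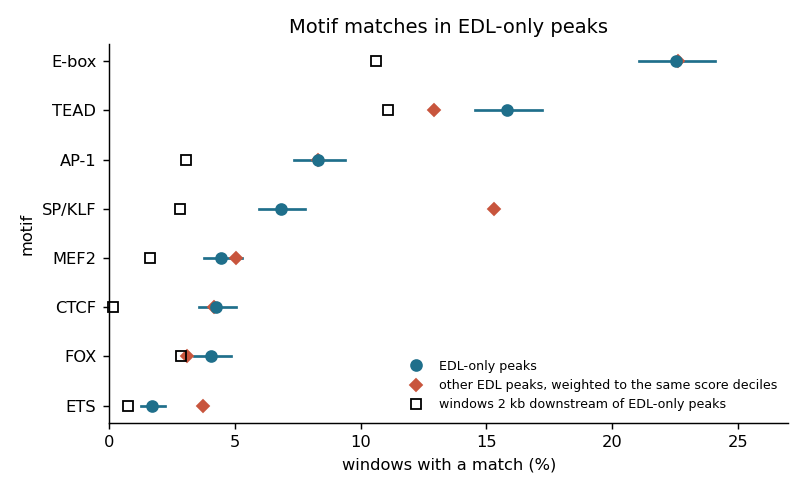
Percentage of windows with a match to each of 8 motifs, for EDL-only peaks (circles with 95% Wilson intervals), other EDL peaks weighted to the same score deciles (diamonds) and windows 2 kb downstream of the EDL-only peaks (open squares). The E-box is CAGCTG, in 22.5% of EDL-only peaks and 10.6% of downstream windows, and TEAD stands above the diamonds while SP/KLF and ETS stand below them.

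Motif content was also compared by score. Members in the upper 50% of the list by score, a split made after the values had been seen, had a MEF2 match in 19 of 245 (7.76%), against 3.92% of the other EDL peaks of that range, and AP-1 in 11.8% against 5.87%. Outside promoters the MEF2 difference was 1.69 points (-1.39 to 6.21) and the AP-1 difference 4.01 points (0.07 to 9.22). Among the 38 members at or above percentile 75, AP-1, which the stress- and activity-responsive Fos and Jun proteins bind, was present in 8, or 21.1%, against 4.35%, and MEF2 in 1, or 2.63%, against 2.93%. Outside promoters the AP-1 shares were 24.2% and 7.93%. The CAGCTG E-box (34.2% against 15.5%), the CAGGTG E-box (23.7% against 10.2%) and TEAD (23.7% against 9.08%) were also more frequent, and ETS and SP/KLF less frequent, by intervals that leave out 0. Outside promoters the TEAD interval (0.356 to 28.7) still left out 0, and those of the E-boxes, ETS and SP/KLF included it. With 3 score ranges and 22 motifs, 66 such differences were computed over all peaks and as many again outside promoters. Intervals were not adjusted for these numbers. CTCF was found in 2 of the 245 upper members (0.816%) and 121 of the 2644 lower ones (4.58%). The other EDL peaks showed the same order, with 1.36% and 3.89%, and both intervals of the difference included 0.

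Set against the other muscles' own peaks, over the central 100 bp because widths differ between lists, EDL-only peaks stood out in CTCF. A match was present in 3.22% of EDL-only, 1.38% of Quad-only, 0.899% of Sol-only and 2.23% of Dia-only peaks, with differences of 1.84 (1.21 to 2.58), 2.32 (1.64 to 3.07) and 0.993 points (0.064 to 1.89). This rests on the weak peaks: when each list was cut to its 20000 highest-scored peaks, the differences were 0.283 and 0.261 points for Quad and Sol, with intervals that include 0, and -2.22 points (-2.99 to -1.36) for Dia. That cut keeps most of the 21582 Dia peaks, weak ones included. With each list cut to its upper 50% by score, the Dia difference was 0.778 points (-3.78 to 2.79). MEF2 was in 2.42% of EDL-only, 1.73% of Quad-only, 2.92% of Sol-only and 0.663% of Dia-only peaks, and the CAGCTG E-box in 12.9%, 11.5%, 12.4% and 7.77%. Both were more frequent in EDL-only than in Dia-only peaks, with intervals that include 0 in the upper 50% by score, and MEF2 was more frequent than in Quad-only peaks. The E-box difference from Quad-only peaks was 1.41 points (0.083 to 2.81), and its interval included 0 at gaps of 0 and 2000 bp and with either cut by score. For Sol-only peaks the MEF2 and E-box intervals included 0 (-1.26 to 0.290 and -1.14 to 2.05 points). The word AGATAA of GATA factors was less frequent in EDL-only than in Dia-only peaks (3.25% against 5.64%), as was FOX (2.25% against 3.55%), which was more frequent than in Quad-only peaks (1.25%). In all, 20 of the 66 comparisons of a motif with another muscle had an interval that leaves out 0.

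By nearest gene the members fell to 2469 genes, of which 2119 had 1 EDL-only peak, 294 had 2 and 14 had 4 or more. Most of these genes had peaks in the other muscles too: 1732 had peaks in each of the other 3 lists and 217 had none there. Dab2ip, a Ras GTPase-activating protein, had the most, 7 of its 13 EDL peaks, 5 of them within 75.3 kb, and 2 of the 7 were at promoters of its alternative transcripts (scores 8.18 and 6.06). Quad had 17 peaks at Dab2ip, Sol 9 and Dia 4. Genes with 4 EDL-only peaks included Tgfbr3, a co-receptor for TGF-beta, Epas1, the hypoxia-responsive factor HIF-2 alpha, Pdlim5, a Z-disc protein, Tacc2, Xxylt1, Zfp521 and Fggy. Rap1gap, which switches off the GTPase Rap1, had 4 EDL peaks that were all EDL-only, within 15.1 kb and with scores of 4.04 to 5.58, where Quad had 2 peaks and Sol and Dia none. Altogether 216 genes had EDL-only peaks and no other peak in any list. The 9 of them with 2 or more included Cwh43 (3 peaks), Pi16, a marker of adventitial fibroblasts, Rad9b, Ccdc155, Msantd1, Gm5468 and the microRNA genes Mir7242 and Mir8117, and none of their peaks scored above percentile 56.1.

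At genes of the contractile apparatus 4 EDL-only peaks were found. In 15 lists of genes, the share of EDL peaks that were EDL-only was 3.45% for fast contractile genes (2 of 58, Tnnc2 and Pvalb, interval 0.951% to 11.7%) and 5.71% for slow contractile genes (2 of 35, at Atp2a2, the slow calcium pump, and Casq2, interval 1.58% to 18.6%). Both intervals include the 9.6% of the whole list, and with each list cut to its 20000 highest scores the 4 peaks became 8. For oxidative and lipid genes it was 1 of 78, at Lpin1 (1.28%, interval 0.227% to 6.91%), and this interval lies below the 9.6% of the whole list. In Quad 13 of 94 peaks at these genes were Quad-only (13.8%, interval 8.26% to 22.2%), beside 26.5% of all Quad peaks. Sol had 7.79% beside 13.9% and Dia 6.67% beside 9.79%, with intervals that include those averages. A low share was thus not particular to EDL. For genes of satellite cells and myogenesis the EDL-only share was 0 of 35, which allows a share of up to 9.89% by the Wilson interval. Acta1, skeletal alpha-actin, had 5 EDL peaks by nearest gene, of which the promoter peak (16.7) was shared with Quad and Dia, and 2 weak peaks at -8158 bp (4.62) and -18520 bp (4.04), in introns of a neighbouring gene, were EDL-only. Myh2, the myosin of fast oxidative fibres, had 2 EDL peaks and neither was EDL-only, and Myh1 had none in EDL. In the Sol list, for scale, 24 of 61 peaks at slow contractile genes were Sol-only (39.3%, interval 28.1% to 51.9%), beside 13.9% of all Sol peaks. Since the rule used these calls, the shares are descriptions.

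Regulators of fibre type held 25 EDL-only peaks of 229 (10.9%, interval 7.50% to 15.6%), at 18 of 43 genes, and the interval includes the 9.6% of the whole list. With each list cut to its 20000 highest scores the share was 14.5% (9.84% to 20.8%) beside 8.22% of all peaks, and in the upper 50% by score it was 5.22% (2.41% to 10.9%) beside 1.68%. Beside Mef2d, Maf had 4 of its 14 EDL peaks, all far from its start (225601 to 557071 bp downstream), the 2 strongest next to each other with scores of 8.18 and 6.25. Maf belongs to the large Maf factors, which support the fastest fibres. Sox6, a repressor of slow-fibre genes, had 2 in its introns (9.24 and 6.83), and Six2, a homeobox factor of the family that drives fast genes, had 2 far upstream (5 and 4.04). Nr4a1, a nuclear receptor of glycolytic metabolism, had 1 (9.24), as had Nfatc1, the calcineurin-dependent factor of slow fibres (5.58), while Ppp3ca, a catalytic subunit of calcineurin itself, had 2 weak ones (4.04 each). The list thus mixes genes of both fibre programmes.

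Glycolysis and glycogen genes held 8 of 103 (7.77%, interval 3.99% to 14.6%), beside 9.6% in the whole list. After Pygm the strongest was at a promoter of Ldha, lactate dehydrogenase A (9.33, at -125 bp, with the nearest peak of another list 918 bp away). Gyg, glycogenin, had 1 in an intron (7.22), Hk2, hexokinase 2, 1 at -31629 bp (6.35), and Pfkfb1 1 at its promoter (5.58, at -17 bp). Gbe1, Phkb and Ppp1r3b had weaker members, with scores of 4.23, 4.14 and 3.94.

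**Figure D5:**
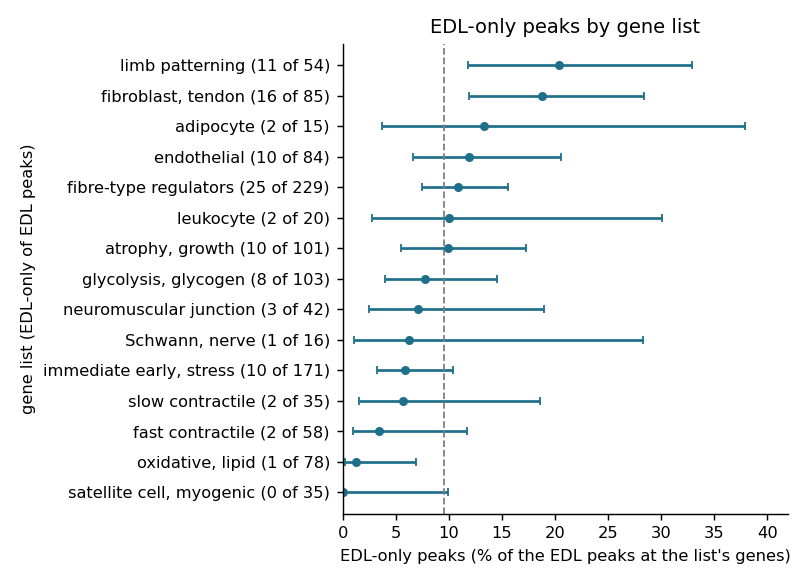
Share of the EDL peaks nearest to the genes of each list that are EDL-only, with 95% Wilson intervals and the counts beside each name. The dashed line is the share in the whole EDL list, 9.6%. Limb patterning (20.4%) and fibroblast and tendon genes (18.8%) are the highest and have intervals above the line.

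The highest shares were at genes of position and of connective tissue. Limb patterning genes, which record where along the body and limb a tissue arose, had 11 EDL-only peaks of 54 (20.4%, interval 11.8% to 32.9%). With each list cut to its 20000 highest scores the share was 14.7% (6.45% to 30.1%), an interval that includes the 8.22% of all peaks at that cut. The 11 members included the promoters of Hoxa10 (7.60, at -59 bp) and Hoxa11 (6.83, at -1 bp), homeobox genes of the more distal limb. The nearest peaks to the Hoxa11 promoter were 5068 bp away in Sol, 5077 bp in Quad and 41109 bp in Dia, and no other list held a peak assigned to Hoxa11. Pitx1, a hindlimb determinant, had 1 at -145642 bp (4.81). Lbx1, a factor of migrating limb muscle precursors, had 2 (7.12 and 3.94), and Nr2f2 and Meis1 had 2 and 1, with scores of 4.71 or less. In the Quad list 29 of 71 peaks at these genes were Quad-only (40.8%, interval 30.2% to 52.5%), beside 26.5% of all Quad peaks. Sol had 6 of 44 (13.6%) beside 13.9%, and Dia 5 of 33 (15.2%, interval 6.65% to 30.9%) beside 9.79%. A share above the list's average was thus found in Quad as well and was not particular to EDL.

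Fibroblast and tendon genes had 16 EDL-only peaks of 85 (18.8%, interval 11.9% to 28.4%) at 12 of 33 genes. They included an intron of Col5a1, a fibrillar collagen (8.47), both peaks of Pi16 (7.60 and 4.52), the promoter of Mfap5, a microfibril protein (6.06, at -188 bp), Dpt (5.87), the region at -3221 bp of Pdgfra, the receptor that marks fibro-adipogenic progenitors (5.77), Prrx1, a factor of limb mesenchyme (5.58 and 3.94), and Dcn, decorin (5.48). Col3a1 and Twist1 had 2 weak members each. Among EDL peaks in the upper 50% by score the share was 6.06% (1.68% to 19.6%), an interval that reaches down to the 1.68% of all such peaks. With each list cut to its 20000 highest-scored peaks the share was 30.6% (19.5% to 44.5%) beside 8.22%. In Quad 47 of 121 peaks at these genes were Quad-only (38.8%, interval 30.6% to 47.7%), beside 26.5% of all Quad peaks. Sol had 9 of 60 (15.0%) beside 13.9% and Dia 4 of 35 (11.4%) beside 9.79%, with intervals that include those averages. More connective tissue in a sample and more open chromatin in its cells cannot be told apart in whole muscle.

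Markers of other tissue cells gave the following counts, all with intervals that include the 9.6% of the whole list. Endothelial genes had 10 of 84 (11.9%): Flt1 and Tek, receptors for vascular growth factors, had 2 each (5.77 and 5.68, and 5.87 and 3.66), and Fli1, Sox7, Kdr, Vwf, Tie1 and Aplnr had 1 each. Schwann cell and nerve genes had 1 of 16 (Cnp, 4.81), leukocyte genes 2 of 20 (Lyz2, 4.23, and Runx1, 3.94), adipocyte genes 2 of 15 (Car3, 5.10, and Pck1, 4.04) and genes of the neuromuscular junction 3 of 42 (Egr3, 5.58, Etv4, 4.81, and Utrn, 4.14). All of these scores were in the lower 50% of the EDL list, and their part in the EDL-only set was not tested. Immediate early and stress genes had 10 of 171 (5.85%, interval 3.21% to 10.4%), beside the same 9.6%. Dusp1, a phosphatase that stops MAP kinase signalling, was the highest (9.52), then Zbtb16 (7.50), Klf15 (5.87), Klf9 (5.77), Fosl2 (5.48 and 4.91) and Fos (4.33 and 3.85). Atrophy and growth genes had 10 peaks (9.90%), with 2 each at Foxo3, a driver of muscle protein breakdown (5.48 and 4.23), Bmpr1a (5.29 and 4.71) and Nr3c1, the glucocorticoid receptor (4.91 and 4.23), and 1 each at Irs2 (6.35), Irs1 (4.62), Igf1r and Acvr2a (3.85 each).

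Members were spread over the genome. The share of EDL peaks that were EDL-only ran from 7.28% on chromosome X to 12.3% on chromosome 18 among the autosomes and X, and 80 groups of members within 10 kb of each other held 165 of the 2892. Proteins are encoded by the nearest gene for 82.5% of members and 87.0% of the other EDL peaks.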

How the data were processed

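Frozen muscle of sedentary wild-type mice was profiled by ATAC-seq, with 1 pooled library for each of 4 muscles. The number of samples in a pool is not given in the sources used here. The authors aligned reads to mm10 with Bowtie2 and, with HOMER, kept 1 tag per start position and called factor-style peaks in each library. The deposited Peak Score is a tag count that HOMER scaled to 10 M tags, which is not a raw count. The deposited Focus Ratio, a fraction between 0 and 1, is the share of a peak's tags placed as around a focused centre, and is not reported here. The deposited distances run from the nearest transcription start site to the peak centre, and the nearest gene and annotation class are also the authors'. The deposited detailed annotation was empty, so repeats were taken as soft-masked bases of the GRCm38 reference, with a limit of 50% of a peak. Peaks off the assembled chromosomes (18 of EDL, 3 of them members) had no sequence.

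Gaps between peaks were measured edge to edge. The members, the 15 gene lists (391 genes) and the 22 motifs were chosen with earlier results of these data known. Named genes are those of the 10 highest-scored members, the 10 genes with most members, up to 6 genes per list by score plus those with 2 or more members, genes with no peak but 2 or more members, the myosins, Ngdn, Acta1 and Pvalb, and the peaks at the limit. Cxcl12, Glul, Smarcd3, Flnc and Fhl3, and further genes of the regulator, glycolysis, limb, fibroblast, endothelial and atrophy lists, were named after their values had been seen. Intervals are at 95%, by Wilson for a share, by Newcombe for the difference between a pair of shares and normal for means. All cover counting error over peaks only, and with 1 library per muscle no test between muscles exists. Other EDL peaks were also weighted to the score deciles of the members. Motifs were searched on both strands of whole peaks, of windows 2 kb downstream and, across muscles, of the central 100 bp. Alternatives were gaps of 0 and 2000 bp, lists cut to their 20000 highest scores, the upper 50% by score, autosomes and X, and peaks outside promoters. In the alternatives the upper 50% holds peaks at or above the median score, ties included, and across muscles each list was cut in this way. The 245 members in the upper 50% were instead taken by percentile, without ties at the median, so the values of these sets differ. Steps were tested on simulated data. Python 3.11.15, pandas 2.3.3, numpy 2.4.6 and scipy 1.17.1 were used. Some members of the lists are not reported here.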

Additional observations from a re-analysis of the deposited data

How the results depend on the processing

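The EDL-only share of the EDL list (9.6%) was 12% at a gap of 0 bp, 8.13% at 2000 bp, 8.22% among the 20000 highest-scored peaks of each list and 1.68% among EDL peaks in the upper 50% by score. The promoter, repeat and GC differences from other EDL peaks kept their direction and intervals that leave out 0 under every alternative run with 1 choice changed. With promoters left out and weighting by score together, the repeat difference was 0.672 points (-0.0186 to 1.36). The intergenic difference was 1.65 points after weighting by score decile, with an interval that includes 0. The difference beyond 50 kb of a start site was 1.12 points after weighting and -2.05 points (-5.15 to 2.22) in the upper 50% by score. Of the 22 motifs, 12 differed from other EDL peaks before weighting and 4 after it. The CTCF difference within EDL (1.74 points) was -0.269 in the upper 50% by score with ties at the median included. The CAGCTG difference (1.86 points) was -0.0969 after weighting and -2.78 outside promoters. Across muscles, in alternatives chosen after seeing the data, the CTCF difference was -0.265 from Quad-only and -0.115 from Sol-only peaks in the upper 50% by score and -2.22 from Dia-only peaks among the 20000 highest-scored, and the TEAD difference from Dia-only peaks was -0.860 in the upper 50%. From Dia-only peaks in the upper 50% by score the CTCF difference was 0.778 points (-3.78 to 2.79). The cause was not tested. EDL-only peaks at contractile genes numbered 4, and 7 at a gap of 0 bp, 8 among the 20000 highest-scored peaks and 2 in the upper 50%. Of 192 alternative values for 32 results, 146 kept their direction and call or stayed within the limits set for a moved value. No paired analysis was possible because each muscle has 1 library. A peak that was not called in a list may lie just under that list's threshold, and depth, list length and peak width differ between libraries, so muscle and library cannot be told apart.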
